A study of Homo sapiens with 6 samples.

Results

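Cytosolic nucleic acid sensing was examined through 10 genes, RIGI, IFIH1, DHX58, TLR3, CGAS, MAVS, STING1, TBK1, IKBKE and IRF3. They were taken by name from the 60612 gene identifiers of the count table, where each symbol matched 1 identifier, with RIGI and STING1 carrying the older names DDX58 and TMEM173 in GENCODE release 29. The data are sequencing counts of oligo(dT)-selected RNA from U251 cells, an established human glioma line, in 3 libraries with transient knockdown of TEAD3 (TEAD3_KD) and 3 control libraries (NC). The knockdown agent is given as siRNA in one place and as a plasmid vector in another. For the controls they name no agent. A response to transfection and a response to loss of TEAD3 therefore cannot be told apart where the controls were handled differently. Nothing in the labels ties the replicates to separate cultures, so the p-values rest on a spread among libraries that may be technical only.

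RNA or DNA in the wrong compartment is read by 2 parallel routes that meet at the same kinases. RIG-I (from RIGI) and MDA5 (from IFIH1) are RNA helicases that bind viral double-stranded RNA in the cytosol and signal through MAVS, an adaptor on the outer mitochondrial membrane, while LGP2 (from DHX58), the third helicase of the family, lacks the signalling domains and tunes the other two. cGAS (from CGAS) binds cytosolic DNA and makes the messenger cGAMP, which activates STING (from STING1) on the endoplasmic reticulum. TLR3 reads double-stranded RNA in endosomes through the adaptor TICAM1. All these routes activate the kinases TBK1 and IKK-epsilon (from IKBKE), which phosphorylate IRF3, a transcription factor that switches on interferon beta. RIGI, IFIH1, DHX58 and TLR3 are themselves induced by interferon in many cell types.

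Promoter sequence was available from RefSeq on build GRCh38.p14 for 6 of the 10 genes and was searched, in the 250 bases before and 50 bases after the annotated start, for 2 sets of letters on both strands. The first, GAAA followed by any 2 bases and GAAA again, resembles the core of the interferon-stimulated response element, and occurred in 3.57% of 35116 promoters of the same length. The second, GGG followed by any 3 bases and TTCC, resembles an NF-kappaB site and occurred in 6.52%. The 250 bases upstream of RIGI and IFIH1 are shown because these were the most abundant of the 10 transcripts, and those of IFNB1 because it was the one transcript of the pathway that differed by the test used here. Each is written 5′ to 3′ on the strand of the gene, with the matched letters of either motif in capitals. Positions count back from -1, the base before the RefSeq start. The RefSeq and GENCODE starts differ, so that some of the 250 bases lie inside the gene as GENCODE release 29 bounds it. These number 128 for RIGI, including its match, 19 for IFIH1, including part of its match at -21, and 21 for IFNB1. For TBK1 that number is 240.
RIGI, chr9:32526197-32526446, minus strand: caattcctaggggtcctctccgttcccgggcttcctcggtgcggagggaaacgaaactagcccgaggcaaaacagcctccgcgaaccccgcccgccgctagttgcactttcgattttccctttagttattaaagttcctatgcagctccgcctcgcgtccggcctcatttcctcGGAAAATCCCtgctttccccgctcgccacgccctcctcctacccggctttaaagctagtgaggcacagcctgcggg
IFIH1, chr2:162318685-162318934, minus strand: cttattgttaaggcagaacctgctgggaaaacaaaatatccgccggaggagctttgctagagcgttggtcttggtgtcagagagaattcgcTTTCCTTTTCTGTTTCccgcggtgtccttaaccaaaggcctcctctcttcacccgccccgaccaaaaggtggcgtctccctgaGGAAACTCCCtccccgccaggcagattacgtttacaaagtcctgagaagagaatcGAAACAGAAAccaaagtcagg
IFNB1, chr9:21077943-21078192, minus strand: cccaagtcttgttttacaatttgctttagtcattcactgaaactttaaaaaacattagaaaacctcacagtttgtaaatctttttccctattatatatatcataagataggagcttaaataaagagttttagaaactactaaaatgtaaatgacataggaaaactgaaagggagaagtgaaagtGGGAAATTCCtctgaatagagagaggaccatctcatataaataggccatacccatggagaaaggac
IFIH1 held 3 matches to the first motif, starting at -159, -153 and -21, of which the first 2 overlap, and 1 match to the second at -76. RIGI held none of the first and 1 of the second, also at -76. TLR3 held 1 match to the first motif, from -4 across its start, and MAVS, TBK1 and IKBKE held neither. IFNB1 held 1 match to the second motif, at -66. A match describes the letters only, and a window without one says nothing of the factor.

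Library totals lay between 63145768 and 64808615 counts in the TEAD3_KD libraries and between 58344026 and 63685272 counts in the controls. TEAD3 was at 4.70, 8.35 and 6.08 CPM (TMM-normalised counts, scaled to library size) in TEAD3_KD replicates 1 to 3, against 14.9, 20.3 and 21.0 CPM in NC replicates 1 to 3, and fell to 34.0% of its mean in NC (24.4% to 47.5% at 95% confidence, log2 fold change -1.55, edgeR adjusted p = 0.0114). That call ended without NC replicate 3, TEAD3_KD replicate 1 or TEAD3_KD replicate 3 (edgeR adjusted p of 0.0541, 0.0532 and 0.0938). Of 8 glioma line markers, VIM, NES, CD44, SOX9 and SOX2 were above 39 CPM in every library, while GFAP and S100B stayed under 2 CPM and OLIG2 had no count. They summed to 4379 to 4937 CPM in TEAD3_KD libraries and 5314 to 5881 CPM in NC libraries. Most of that sum was VIM, which averaged 3679 CPM in TEAD3_KD and 4484 CPM in NC. NES averaged 186 CPM in TEAD3_KD and 185 CPM in NC, and CD44 616 and 648 CPM. Of the 7 markers tested, 6 had log2 fold changes below 0 and none passed the edgeR test at an adjusted p under 0.05. VIM, SOX9, SOX2 and GFAP were lower in every TEAD3_KD library than in any NC library. GFAP was low, at 24 to 108 counts per library, 0.572 ± 0.212 CPM in TEAD3_KD and 1.46 ± 0.298 CPM in NC. Over all tested genes 8890 of 17723 were below 0, and 10.6% were lower with no overlap. For VIM the edgeR adjusted p was 0.200, and 0.0482 after the length and GC correction. The part of these markers in the results on the sensing genes was not tested. The 8 leukocyte and microglia markers summed to 1.22 to 1.76 CPM in TEAD3_KD libraries and 1.02 to 1.34 CPM in NC libraries, with CD3E and AIF1 at 0 throughout. The 4 endothelial markers summed to 0.995 to 2.19 CPM in TEAD3_KD libraries and 1.91 to 2.40 CPM in NC libraries.

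None of the 10 genes differed between knockdown and control by edgeR's quasi-likelihood test, in which a gene is called at an adjusted p under 0.05 over all genes tested. CGAS had too few counts to be tested and the other 9 entered the fit. Over all genes, 116 of 17723 were called (0.655%), 80 of them higher (0.451%) and 36 lower (0.203%). With a correction for transcript length and GC content, which covered protein-coding genes alone, 829 of 13690 were called, 305 higher and 524 lower. Their median log2 fold change over all 13690 was -0.0357. Without the correction 69 protein-coding genes were called higher and 32 lower. Of the 9 sensing genes 2 had an unadjusted p under 0.05, TBK1 higher and STING1 lower, where 15.6% of all tested genes had one, 8.15% higher and 7.43% lower. Those were also the 2 genes whose knockdown and control libraries did not overlap, which held for 21.6% of all tested genes, 11.0% higher and 10.6% lower. The log2 fold changes of the 9 genes ran from -0.31 to 0.31 with a median of 0.01, against a median of -0.0012 over all tested genes, 5 above 0 and 4 below. Because the cells were sequenced in bulk, fewer cells expressing a gene and less RNA per cell cannot be told apart.

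**Figure D1:**
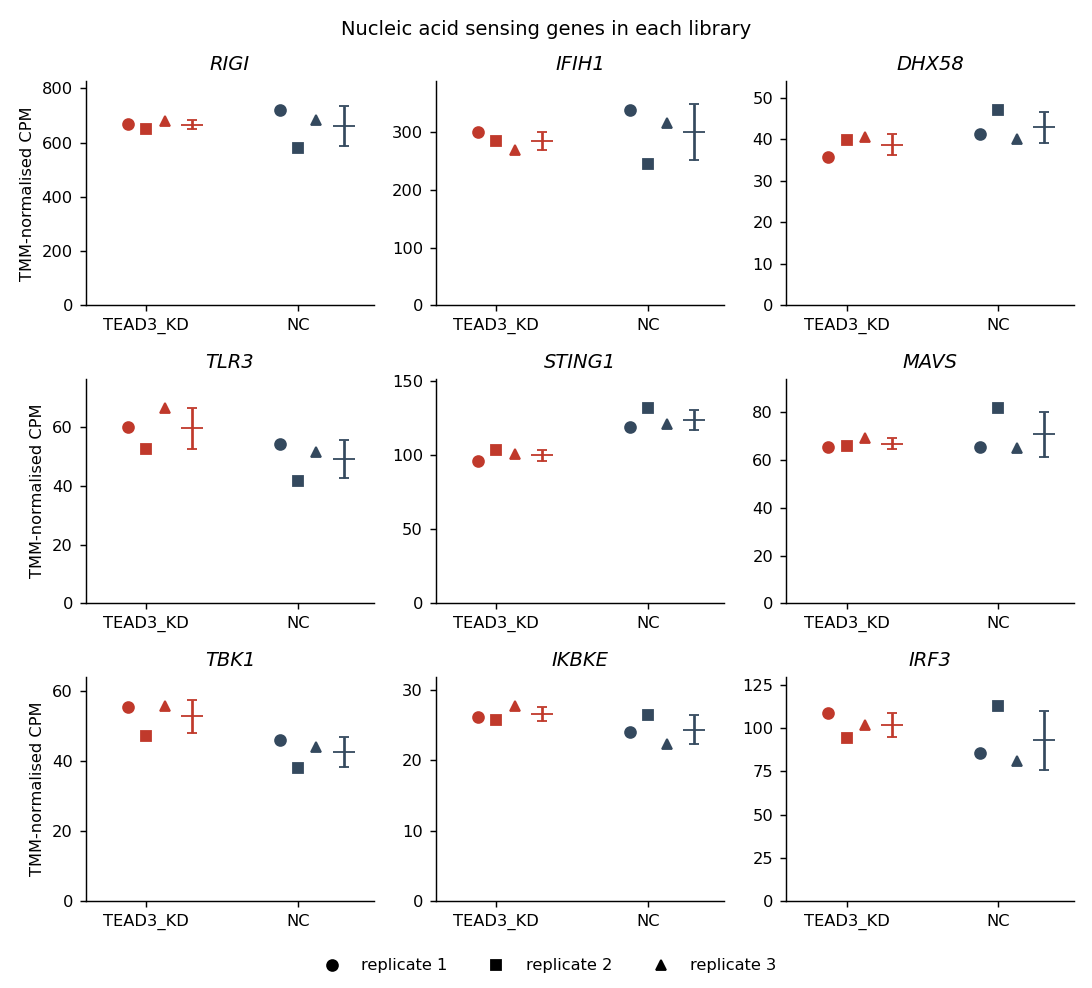
TMM-normalised CPM of the 9 tested genes in each library (vertical axes, starting at 0), TEAD3_KD on the left and NC on the right, with replicates by symbol and the mean ± SD of 3 beside them. STING1 lies lower and TBK1 higher in every TEAD3_KD library than in any NC library, and the other 7 overlap.

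RIGI was the most abundant member. It lies on chromosome 9 from 32455705 to 32526324 on the minus strand (ENSG00000107201, GRCh38, as are all coordinates here). Its level was 667, 648 and 680 CPM in TEAD3_KD replicates 1 to 3, against 719, 578 and 682 CPM in NC replicates 1 to 3. The knockdown libraries lay inside the range of the controls, whose spread came from replicate 2. The fold change was 1.01 with a 95% interval of 0.862 to 1.18 (log2 0.01, SE 0.103, edgeR adjusted p = 0.979). The log2 value was -0.08 without NC replicate 2, -0.0048 without TEAD3_KD replicate 3, -0.0017 with scaling by library totals alone and -0.0063 with the length and GC correction.

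IFIH1, the sensor of long double-stranded RNA, lies on chromosome 2 from 162267079 to 162318703 on the minus strand (ENSG00000115267). It was at 300.1, 284 and 269 CPM in TEAD3_KD replicates 1 to 3, against 338, 245 and 316 CPM in NC replicates 1 to 3. Again the knockdown libraries lay between the lowest control, replicate 2, and the other controls. The log2 fold change was -0.08 (SE 0.123, fold 0.948 with a 95% interval of 0.786 to 1.14, edgeR adjusted p = 0.829). It was 0.02 without NC replicate 1 and -0.21 without NC replicate 2.

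DHX58, the regulator without signalling domains, lies on chromosome 17 from 42101404 to 42112733 on the minus strand (ENSG00000108771). It was at 35.7, 39.9 and 40.5 CPM in TEAD3_KD replicates 1 to 3, against 41.4, 46.9 and 40.1 CPM in NC replicates 1 to 3, so that TEAD3_KD replicate 3 lay above NC replicate 3 and the groups overlapped. The log2 fold change was -0.15 (SE 0.111, edgeR adjusted p = 0.577), and -0.0769 without NC replicate 2 or -0.0878 without TEAD3_KD replicate 1. TLR3 lies on chromosome 4 from 186069152 to 186088069 on the plus strand (ENSG00000164342). It was at 60.0, 52.5 and 66.4 CPM in TEAD3_KD replicates 1 to 3, against 54.1, 41.7 and 51.5 CPM in NC replicates 1 to 3. Of the knockdown libraries, replicate 2 lay under the highest control and the other two above it. The log2 fold change was 0.28 (SE 0.13, fold 1.22 with a 95% interval of 0.997 to 1.48, edgeR adjusted p = 0.329), and 0.17 without NC replicate 2, which held the lowest TLR3 level.

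CGAS, the DNA sensor, was at the detection limit. It lies on chromosome 6 from 73413515 to 73452276 on the minus strand (ENSG00000164430). There were 0, 12 and 0 counts in TEAD3_KD replicates 1 to 3 and 0 counts in each NC library. The 12 counts correspond to 0.187 CPM. A count of 0 allows up to 3 counts per library, or 0.0457 to 0.0529 CPM in the 5 libraries at 0, which covers counting error only. No fold change is given. At this depth CGAS transcript was under these limits in 5 of 6 libraries, if each value is a count of single reads. Which tool wrote the counts is not given, so a 0 set by that tool's own cutoff cannot be told apart. Exons of DDX43 on the opposite strand cover 4.33% of the CGAS exons.

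The adaptor downstream of cGAS was well expressed. STING1 lies on chromosome 5 from 139475534 to 139482935 on the minus strand (ENSG00000184584). Its level was 96.1, 103 and 101 CPM in TEAD3_KD replicates 1 to 3, against 119, 132 and 121 CPM in NC replicates 1 to 3. All 3 knockdown libraries lay under all 3 controls, and within each group the coefficient of variation was 3.6% in TEAD3_KD and 5.49% in NC. The means were 99.9 ± 3.60 CPM in TEAD3_KD and 124 ± 6.79 CPM in NC (SD, n = 3 each). The fold change was 0.807 with a 95% interval of 0.701 to 0.930 (log2 -0.31, SE 0.093), and it was not called (edgeR adjusted p = 0.157). DESeq2 called it (log2 -0.30, adjusted p = 0.0451). So did edgeR after the length and GC correction (log2 -0.30, adjusted p = 0.0272), while the adjusted p over all 15 alternatives ran from 0.0272 to 0.467. DESeq2 called 5.97% of the genes it gave an adjusted p (2.51% lower), and edgeR after the correction 6.06% (3.83% lower).

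MAVS, the adaptor of RIG-I and MDA5, lies on chromosome 20 from 3846799 to 3876123 on the plus strand (ENSG00000088888). It was at 65.5, 65.9 and 69.5 CPM in TEAD3_KD replicates 1 to 3, against 65.6, 81.8 and 65.2 CPM in NC replicates 1 to 3. NC replicate 2 alone stood above the knockdown libraries. The log2 fold change was -0.08 (SE 0.113, fold 0.945 with a 95% interval of 0.796 to 1.12, edgeR adjusted p = 0.796), and 0.03 without NC replicate 2. The difference between the 2 adaptors' fold changes was not tested.

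The kinase TBK1, shared by the RNA and DNA routes, lies on chromosome 12 from 64451880 to 64502108 on the plus strand (ENSG00000183735). It was at 55.3, 47.2 and 55.6 CPM in TEAD3_KD replicates 1 to 3, against 45.9, 37.8 and 44.1 CPM in NC replicates 1 to 3. Every knockdown library lay above every control, by a margin of 47.2 CPM in the lowest knockdown library against 45.9 CPM in the highest control. The means were 52.7 ± 4.78 CPM in TEAD3_KD and 42.6 ± 4.21 CPM in NC (SD, n = 3 each), a fold change of 1.24 with a 95% interval of 1.03 to 1.48 (log2 0.31, SE 0.117, edgeR adjusted p = 0.245). It was not called under any of the 15 alternatives, whose adjusted p ran from 0.0855 to 0.603. An antisense transcript on the opposite strand, ENSG00000277895, covers 14.7% of the TBK1 exons, and reads of both could not be told apart if strand was not used in counting.

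IKBKE, the inducible relative of TBK1, lies on chromosome 1 from 206470476 to 206496889 on the plus strand (ENSG00000263528). It was the least abundant tested gene by CPM, at 26.1, 25.7 and 27.6 CPM in TEAD3_KD replicates 1 to 3, against 24.1, 26.4 and 22.3 CPM in NC replicates 1 to 3. NC replicate 2 lay inside the knockdown range. The log2 fold change was 0.13 (SE 0.114, edgeR adjusted p = 0.659), and 0.19 without NC replicate 2 or 0.0698 without NC replicate 3. IRF3, the transcription factor these kinases activate, lies on chromosome 19 from 49659569 to 49665875 on the minus strand (ENSG00000126456). It was at 108, 94.4 and 102 CPM in TEAD3_KD replicates 1 to 3, against 85.3, 113 and 80.9 CPM in NC replicates 1 to 3. NC replicate 2 was the highest of all 6 libraries and the other controls the lowest. The log2 fold change was 0.13 (SE 0.13, edgeR adjusted p = 0.697), or 0.29 without NC replicate 2 (edgeR adjusted p = 0.0921) and 0.0382 without NC replicate 3 (0.958). It was 0.0705 without NC replicate 1 and 0.0830 without TEAD3_KD replicate 1. Exons of BCL2L12 on the opposite strand cover 19.3% of those of IRF3, and of IKBKE-AS1 4.12% of those of IKBKE. IRF3 is activated by phosphorylation and STING by cGAMP, neither of which is read by transcript counts.

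**Figure D2:**
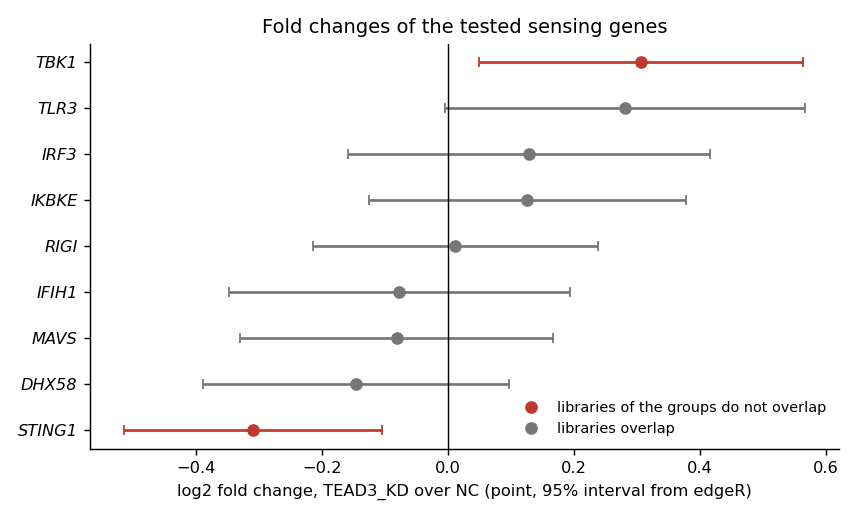
Log2 fold change of TEAD3_KD over NC (horizontal axis) for the 9 tested genes, with its 95% interval derived from the edgeR F test. Genes are in red where the libraries of the groups do not overlap. The points run from -0.31 for STING1 to 0.31 for TBK1, and the intervals of these 2 genes are the ones that do not cross 0.

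Levels were compared between genes as CPM per kilobase of merged exons. RIGI led with 153 ± 3.66 CPM per kilobase in TEAD3_KD and 152 ± 16.7 in NC (SD, n = 3 each), above 98.4% of 13690 tested protein-coding genes in TEAD3_KD and 98.5% in NC. IFIH1 followed with 55.7 ± 3.08 CPM per kilobase in TEAD3_KD and 58.7 ± 9.53 in NC. RIGI was thus 2.74 times the level of IFIH1 in TEAD3_KD and 2.58 times in NC, with no overlap between their libraries. DHX58, the remaining helicase of the family, was at 10.1 ± 0.68 CPM per kilobase in TEAD3_KD and 11.1 ± 0.944 in NC.

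STING1 and IRF3 came next, STING1 at 26.0 ± 0.935 CPM per kilobase in TEAD3_KD and 32.2 ± 1.76 in NC, and IRF3 at 26.8 ± 1.85 in TEAD3_KD and 24.5 ± 4.52 in NC. Their libraries overlapped in TEAD3_KD and did not in NC, where STING1 was the higher. A lower tier held TBK1 (11.1 ± 1.00 CPM per kilobase in TEAD3_KD and 8.94 ± 0.885 in NC), TLR3 (8.87 ± 1.04 in TEAD3_KD and 7.30 ± 0.975 in NC), IKBKE (6.99 ± 0.267 in TEAD3_KD and 6.40 ± 0.54 in NC) and MAVS (5.69 ± 0.188 in TEAD3_KD and 6.02 ± 0.803 in NC). In NC the neighbours TBK1 and TLR3, TLR3 and IKBKE, and IKBKE and MAVS overlapped. In TEAD3_KD the overlapping neighbours of this tier were TBK1 and DHX58, and DHX58 and TLR3. MAVS, the adaptor of RIG-I and MDA5, was the lowest of the 9 tested genes on this scale in both groups. It lay above 56.2% of the tested protein-coding genes in TEAD3_KD and 57.3% in NC. The order of the 10 genes in each group was the same per kilobase of the longest annotated transcript. For MAVS the merged exons hold 11771 bases and that transcript 11714, so the order cannot show whether a shorter transcript was in use.

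**Figure D3:**
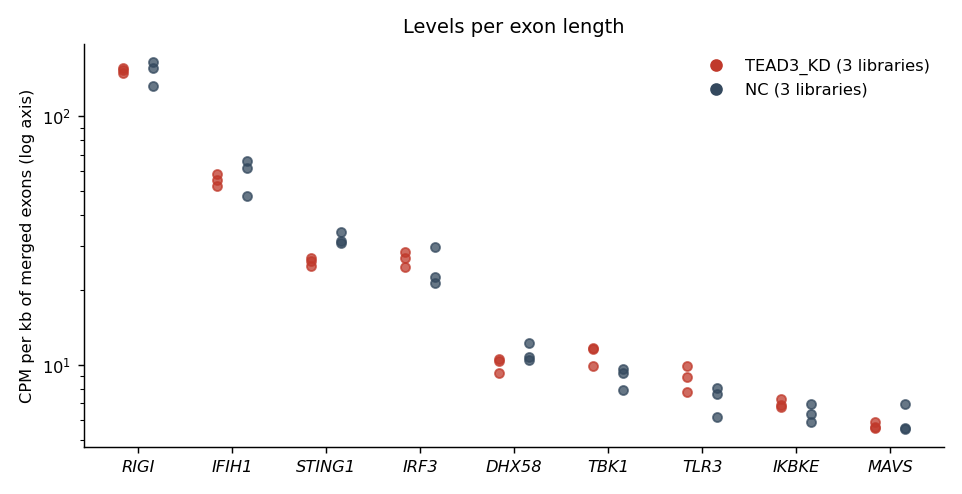
CPM per kilobase of merged exons (log axis) of the 9 tested genes in the 3 TEAD3_KD and the 3 NC libraries, ordered by the NC mean. RIGI stands at 133 to 165 CPM per kilobase over the 6 libraries, IFIH1 at 48.0 to 66.2, and MAVS at 5.54 to 6.95.

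Within the control group, NC replicate 2 separated the genes by base composition. TLR3, TBK1, RIGI and IFIH1, whose longest transcripts have a GC content of 37.6% to 43.3%, were lower there than the mean of the other controls, by log2 values of -0.34, -0.25, -0.28 and -0.42. MAVS, STING1, DHX58, IKBKE and IRF3, with a GC content of 52.1% to 59.0%, were higher, by 0.32, 0.13, 0.20, 0.19 and 0.44. Across the 9 genes, which share these libraries, Pearson's r between GC content and this difference was 0.899, and across 13690 protein-coding genes it was 0.449 (Spearman's rho 0.767 and 0.621). The correction for length and GC content moved the log2 fold change of TBK1 from 0.31 to 0.24 and of TLR3 from 0.28 to 0.23. The SE fell too, from 0.117 to 0.0762 for TBK1 and from 0.13 to 0.0817 for TLR3. The edgeR adjusted p went from 0.245 to 0.0855 for TBK1 and from 0.329 to 0.12 for TLR3. The part of this library's composition in the remaining differences was not tested.

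**Figure D4:**
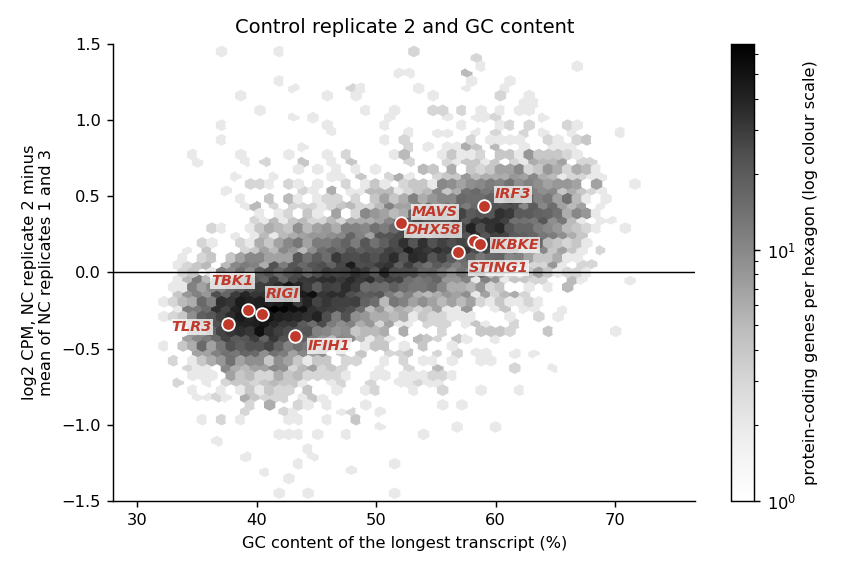
Log2 CPM of NC replicate 2 minus the mean of NC replicates 1 and 3 (vertical axis) against GC content of the longest transcript in percent (horizontal axis), with the 9 genes in red over all tested protein-coding genes in grey, values beyond ±1.5 not drawn. The 4 genes with a GC content up to 43.3% lie below 0 and the other 5 above.

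The pattern of STING1 over the 6 libraries was close to those of GGA2 and POFUT1, with Pearson's r of log2(CPM + 0.1) of 0.995 for GGA2 and 0.994 for POFUT1 among 16099 tested genes with a symbol. Both were picked for their high r, and over 6 libraries 143 of the 16099 genes had an r above 0.95. GGA2 averaged 44.0 CPM in TEAD3_KD and 58.3 CPM in NC, and was not called (log2 fold change -0.40, edgeR adjusted p = 0.11). POFUT1 averaged 90.6 CPM in TEAD3_KD and 102 CPM in NC, and was not called (log2 fold change -0.17, edgeR adjusted p = 0.399).

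Around the 10 genes, 89 other genes of the pathway were listed in 7 groups, of which 78 could be tested. Of 13 partners of RNA sensing, 12 were tested and none was called. All 12 had log2 fold changes below 0, with a median of -0.14, where 8890 of the 17723 genes tested were below 0. Some lay within their error of 0, such as ZCCHC3 (-0.02, SE 0.133). The list was chosen with earlier results of these data known and its genes share the same libraries, so the count is a description and no test. MEX3C, which encodes an RNA-binding ubiquitin ligase, was at 45.3, 38.8 and 35.2 CPM in TEAD3_KD replicates 1 to 3, against 58.4, 53.9 and 63.0 CPM in NC replicates 1 to 3. Its groups did not overlap (log2 fold change -0.56, edgeR adjusted p = 0.0719). Calls came from DESeq2 (adjusted p = 0.00158) and from edgeR after the length and GC correction (0.0124) or without NC replicate 2 (0.0348), and the range over all alternatives reached 0.349. ADAR, which edits double-stranded RNA and so hides it from MDA5, averaged 808 ± 70.7 CPM in TEAD3_KD and 954 ± 50.1 CPM in NC (log2 -0.24, edgeR adjusted p = 0.281). ZC3HAV1, whose product ZAP binds CpG-rich RNA, averaged 128 ± 4.10 CPM in TEAD3_KD and 146 ± 14.2 CPM in NC (-0.20, 0.379).

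Of 19 partners of DNA sensing, 18 were tested and none was called, with 11 above 0, 7 below and a median of 0.03. ENPP1, which encodes the enzyme that degrades extracellular cGAMP, was at 8.99, 8.78 and 8.79 CPM in TEAD3_KD replicates 1 to 3, against 6.78, 4.28 and 5.34 CPM in NC replicates 1 to 3 (log2 fold change 0.69, SE 0.194, edgeR adjusted p = 0.133). All knockdown libraries were above all controls. DESeq2 and edgeR after the length and GC correction called it (adjusted p of 0.0244 and 0.0264), and over all alternatives the adjusted p reached 0.408. PQBP1, whose product links cGAS to retroviral DNA, averaged 60.9 ± 3.40 CPM in TEAD3_KD and 46.7 ± 5.00 CPM in NC (0.38, edgeR adjusted p = 0.147). G3BP1, a stress granule protein that assists cGAS, averaged 153 ± 5.15 CPM in TEAD3_KD and 189 ± 21.7 CPM in NC (-0.31, 0.202). Without NC replicate 2 both were called, at edgeR adjusted p of 0.0421 for PQBP1 and 0.0321 for G3BP1. DESeq2 also called PQBP1 (0.0275) and edgeR after the length and GC correction G3BP1 (0.0184), and over all alternatives the adjusted p reached 0.463 for PQBP1 and 0.530 for G3BP1.

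None of the 16 adaptors and kinases between sensors and transcription factors was called, with 8 above 0, 8 below and a median of 0.0061. RIPK1, a kinase scaffold of death receptor and TLR3 signalling, averaged 57.1 ± 1.38 CPM in TEAD3_KD and 74.6 ± 3.82 CPM in NC, with no overlap (log2 fold change -0.39, edgeR adjusted p = 0.101), and was called by DESeq2 (0.0102), and by edgeR without NC replicate 2 (0.0456) or after correcting for length and GC (0.029), in a range over the alternatives up to 0.407. TNFAIP3, which encodes the ubiquitin-editing inhibitor A20, averaged 9.51 ± 1.40 CPM in TEAD3_KD and 6.57 ± 1.26 CPM in NC (0.53, 0.23). TRAF5, an adaptor of the TRAF family, averaged 18.2 ± 1.64 CPM in TEAD3_KD and 22.3 ± 1.27 CPM in NC (-0.29, 0.293).

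Among 10 genes of the endosomal Toll-like receptors, 8 were tested and none was called, with a median of -0.02. TLR7 and TLR8 had no count in any library, and TLR9 had at most 25 counts. The adaptor gene MYD88 averaged 174 ± 17.2 CPM in TEAD3_KD and 207 ± 26.0 CPM in NC (log2 fold change -0.25, edgeR adjusted p = 0.331), and IRAK1, a kinase that acts after MYD88, averaged 261 ± 24.7 CPM in TEAD3_KD and 225 ± 50.7 CPM in NC (0.21, 0.539). Of 7 other transcription factors of the interferon response, 6 were tested and none was called, with a median of -0.05. IRF9, the DNA-binding subunit of the complex that answers type I interferon, was at 138, 180 and 81.8 CPM in TEAD3_KD replicates 1 to 3, against 85.4, 73.3 and 89.8 CPM in NC replicates 1 to 3. Replicates 1 and 2 of the knockdown were above every control, and replicate 3 was below 2 of the 3 controls (log2 fold change 0.68, edgeR adjusted p = 0.178). IRF2 averaged 22.0 ± 1.54 CPM in TEAD3_KD and 27.8 ± 3.27 CPM in NC (-0.34, 0.231).

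The gene that the pathway switches on was called higher in the main test, but not under every alternative. IFNB1, which encodes interferon beta, had 161, 107 and 113 counts in TEAD3_KD replicates 1 to 3, against 40, 25 and 37 counts in NC replicates 1 to 3, or 1.99 ± 0.511 CPM in TEAD3_KD and 0.555 ± 0.0995 CPM in NC (SD, n = 3 each). Each knockdown library was above each control (log2 fold change 1.84, SE 0.335, edgeR adjusted p = 0.0367). The call ended without NC replicates 1 and 3 and without TEAD3_KD replicates 1, 2 and 3 (edgeR adjusted p of 0.106, 0.129, 0.203, 0.0622 and 0.15), at log2 values from 1.61 to 1.95, and over all alternatives the adjusted p ran from 0.00121 to 0.203. IFNB1 was called under 7 of the 15 alternatives. It was the 1 called gene of the 2 interferon genes tested, out of 8 listed. No other gene was called among the 9 sensing genes and the 78 listed genes that were tested. Over all tested genes 0.655% were called (0.451% higher). The 16 interferon-stimulated and IRF3 target genes included none that was called, with 5 above 0, 11 below and a median of -0.10. Together they were abundant in both groups, with a summed level of 16579 to 17445 CPM in TEAD3_KD libraries and 17976 to 18274 CPM in NC libraries. Single genes differed widely: IFIT1 averaged 3554 CPM in TEAD3_KD and 4082 CPM in NC, and CCL5 28.3 and 31.2 CPM. OAS3, an RNA-activated synthetase gene, averaged 642 ± 56.9 CPM in TEAD3_KD and 808 ± 61.7 CPM in NC, with no overlap (log2 fold change -0.33, edgeR adjusted p = 0.167), and was called by DESeq2 (adjusted p = 0.0408), in a range over the alternatives up to 0.470. MX2, an antiviral dynamin-like GTPase gene, averaged 705 ± 45.5 CPM in TEAD3_KD and 834 ± 44.1 CPM in NC (-0.24, 0.253). The chemokine gene CXCL10 averaged 2.00 ± 0.84 CPM in TEAD3_KD and 1.05 ± 0.311 CPM in NC (0.93, 0.27).

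**Figure D5:**
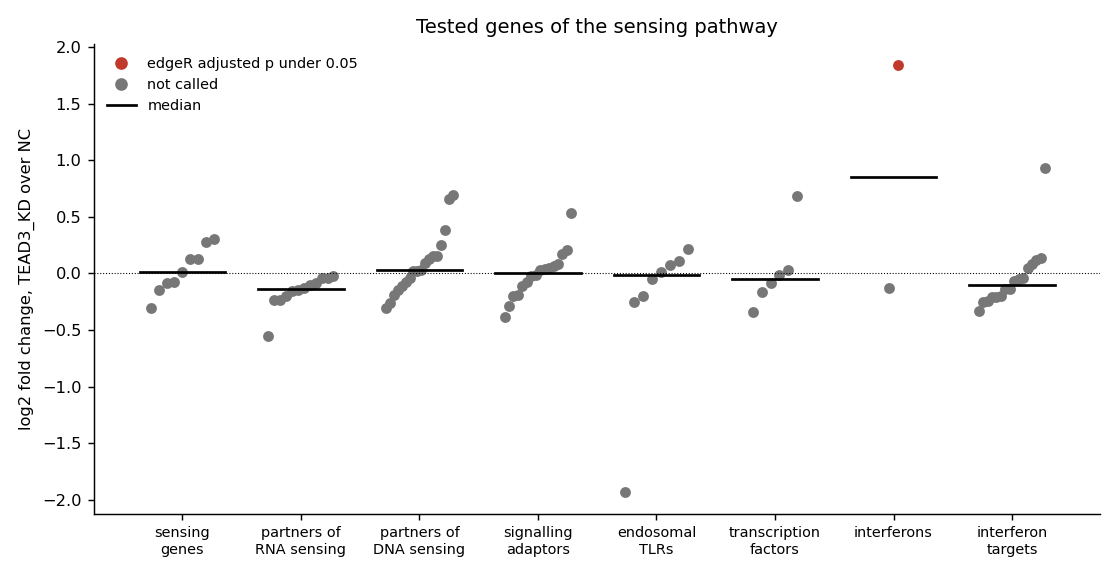
Log2 fold change of TEAD3_KD over NC (vertical axis) of each tested gene among the sensing genes and the 7 groups around them, with red points where the edgeR adjusted p is under 0.05 and bars at the median. The red point is IFNB1 at 1.84. The 12 partners of RNA sensing, listed with earlier results of these data known, all lie below 0 and none was called. The lowest point is TLR9, which had at most 25 counts in a library.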

How the data were processed

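The deposited values are raw counts of reads per gene in 6 libraries, as whole numbers with no scaling for depth. Named in the submitters' processing notes are DESeq2, edgeR, StringTie 1.3.4d, HISAT2 2.0.4 and cutadapt 1.9, with GRCh38. The sources used here do not give which tool wrote the counts, the annotation release or the strand setting, so genes whose exons overlap another gene are uncertain, and so is IKBKG, which has a near-identical copy. Gene coordinates, merged exon lengths, transcript GC content and overlaps were taken from GENCODE release 29 (GRCh38).

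Counts were tested in R 4.3.3 by edgeR 4.0.16 (quasi-likelihood F test, two-sided, TMM normalisation, Benjamini-Hochberg adjustment), and the model held group alone. filterByExpr with its minimum of 10 counts kept 17723 of 29520 genes with a count. Each SE given was derived from the F test, as the absolute log2 fold change over the square root of F. The 95% intervals follow from that SE and the t distribution, and are approximate. Library totals were 58344026 to 64808615, and limits for a count of 0 use 3 counts. Between replicates the counts differed by 21.3 to 73.0 in chi-square per degree of freedom, more than counting noise gives, so none was counted as a repeat sequencing of another. Repeat preparations from one culture would not be seen this way. The procedure was tested on simulated counts. The length and GC correction subtracts a per-library loess surface with a span of 0.3.

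The alternatives were DESeq2 size factors, library totals, no filter, a filter of 50 counts in 3 libraries, DESeq2 1.42.0, limma-voom (3.58.1), a replicate block, omission of each library in turn, the length and GC correction, and removal of mitochondrial genes and of the 10 genes with the most counts. The 10 genes, the lists and the tests were chosen with earlier results of these data known. Named beside them are TEAD3, the called genes of each list or else up to 3 with the smallest p, and the 3 genes most like the member with the smallest p. Some genes that this rule names are not reported here. TLR7, TLR8 and CD3E, among others given at 0, were named after their values were seen.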

Additional observations from a re-analysis of the deposited data

How the results depend on the processing

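Of 135 values of the 9 tested genes under 15 alternatives, 127 kept their direction and their side of the threshold, 6 turned direction and 2 became calls, both of STING1. The count of called sensing genes, 0 in the main test, was 1 with DESeq2 and 1 with the length and GC correction, and 0 to 0 when leaving out a library. RIGI turned to -0.0017 with library totals and -0.0063 with the length and GC correction, and ran from -0.0772 to 0.0771 when leaving out a library, where IFIH1 ran from -0.205 to 0.0181 and MAVS from -0.138 to 0.0317. Without TEAD3_KD replicate 3 RIGI was at -0.0048. Over all genes 116 calls became 31 with no filter, 838 with DESeq2, 20 to 589 when leaving out a library, and 63 with the replicate block. With the length and GC correction, which covered protein-coding genes alone, there were 829. For libraries of the same replicate number, correlations of deviations from the group mean lay between -0.0169 and 0.0083. Taken over all tested genes, low-count ones included, they cannot show whether such libraries were handled together. Partners of RNA sensing had 1 call with DESeq2 and 1 with the length and GC correction (0 to 2 when leaving out a library), partners of DNA sensing 2 and 2 (0 to 2), signalling adaptors 1 and 1 (0 to 1), and interferon targets 1 and 1 (0 to 0), which were OAS3 with DESeq2 and IFI6 with the length and GC correction (adjusted p = 0.0463, against 0.907 in the main test). The interferon call was 0 with no filter, with limma-voom and with the replicate block (0 to 1 when leaving out a library). TEAD3 was not called with no filter (-1.56, edgeR adjusted p = 0.0639), and ran from -1.80 to -1.37 when leaving out a library. The cause of these changes was not tested. Low or 0 counts limit what can be said of CGAS, TLR9 and most interferon genes. For the abundant sensors the spread between libraries sets the interval.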

Other observations

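TREX1, which encodes the exonuclease that clears cytosolic DNA, varied more between libraries of one group than between groups, at 19.8, 5.84 and 15.6 CPM in TEAD3_KD replicates 1 to 3 and 11.5, 9.18 and 21.8 CPM in NC replicates 1 to 3 (log2 fold change -0.04, edgeR adjusted p = 0.981). ZBP1, a sensor of Z-form nucleic acid, was low, at 1.28, 2.09 and 1.70 CPM in TEAD3_KD replicates 1 to 3, against 1.17, 0.969 and 1.07 CPM in NC replicates 1 to 3, with no overlap and no call (0.66, edgeR adjusted p = 0.331). The few counts of IFNL1, IFNL3 and IFNA1 (7, 4 and 2) were all in TEAD3_KD replicate 1, the library with the most IFNB1. IFNA2, IFNK and IFNL2 had no count. IFNE, the other interferon gene tested, had 47, 9 and 33 counts in TEAD3_KD replicates 1 to 3. In NC replicates 1 to 3 it had 36, 15 and 43 counts (log2 fold change -0.13, edgeR adjusted p = 0.961). These genes were named after their values were seen.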
